A study of Mus musculus with 2 samples.

Results

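The genes described here encode chemokines and chemokine receptors of the mouse, compared between tooth and skin. They were every gene on the array named Ccl, Cxcl, Ccr or Cxcr with a number, together with Cx3cl1 and Cx3cr1. The rule found 52 of 24323 named genes, of which 34 encode ligands and 18 encode receptors. They were represented by 68 probes, and 40 genes had a single probe. The study collected total RNA from wild-type tooth and from wild-type skin labelled postnatal day 0, and hybridised 1 array per tissue on the same slide. The tooth sample was a germ with both epithelium and mesenchyme and the skin sample was whole skin with hair follicles, and the methods give an age 1 day later than the labels. Neither the labels nor the methods give how many animals stood behind each RNA. Since neither tissue has a second array, the variation among animals is unknown, no difference below carries a p-value, and each compares these 2 RNA samples.

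Chemokines are small secreted proteins that guide the movement of cells along a gradient. They are named by the spacing of their first cysteines (CC, CXC and CX3C), and they signal through receptors with a matching prefix that couple to inhibitory G proteins. In skin, keratinocytes and fibroblasts release chemokines that place leukocytes and dendritic cells, and around developing teeth and bone chemokines are also known for guiding precursors of osteoclasts and blood vessels.

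Values are the log2 of the processed signal minus the 75th percentile of the array, which was a signal of 427.9 for tooth and 276.1 for skin, and a difference is skin minus tooth for the same probe. Where a gene had several probes the brightest stood for the gene. Levels of different probes were not set against each other, except in signal ranks and in the summed scaled levels of marker lists. Such a sum adds the levels of all markers of a list on the linear scale, so the brightest probes weigh most. The 2 tissues were as labelled: Amelx, an enamel protein, exceeded its skin level at least 16380-fold in tooth, and Krt1, a keratin of the upper epidermis, differed by 9.93 toward skin. A probe that the scanner software called well above background is termed detected, and this held for 56.73% of probes in tooth and 52.54% in skin. Spots of the same probe on 1 array had a median SD of 0.08 for tooth and 0.09 for skin. At these medians a difference has a spread of about 0.12 from spots alone. The spread can be wider for dim probes: the 10 spots of Ccl2 had an SD of 0.18 on each array. A Ccl25 probe and a probe of another name with the same 60 bases gave differences of 0.41 and -0.16. Small differences below are therefore less certain than 0.12 implies. Fewer cells of a type and less RNA per cell cannot be told apart in such bulk samples.

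Of the 52 genes, 25 were detected in 1 tissue or both (48.1%), against 71.6% of all named genes. Of these, 19 were detected in both, 2 in tooth alone (Ccl1 and Ccl5) and 4 in skin alone (Ccl7, Ccr4, Cxcl10 and Cxcr6). Among the 25, 10 (40%) were at least 2-fold higher in skin, against 14.2% of named genes, and 4 (16%) were at least 2-fold higher in tooth, against 15.5%. All 4 genes detected in skin alone are among the 10, and a gene that enters through its higher tissue is favoured in such a count. Of the 19 genes detected in both tissues, 6 (31.6%) were at least 2-fold higher in skin, against 11.4% of named genes on both arrays, and 4 (21.1%) were so in tooth, against 12.3%. The median difference was 0.63 over the 18 ligands measured and 0.11 over the 7 receptors, beside -0.04 over all named genes. Scaling by the spike-in transcripts moves every difference toward tooth by 0.69 and puts the ligand median at -0.06 and the receptor median at -0.59, so the sign of these medians depends on the scaling.

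**Figure D1:**
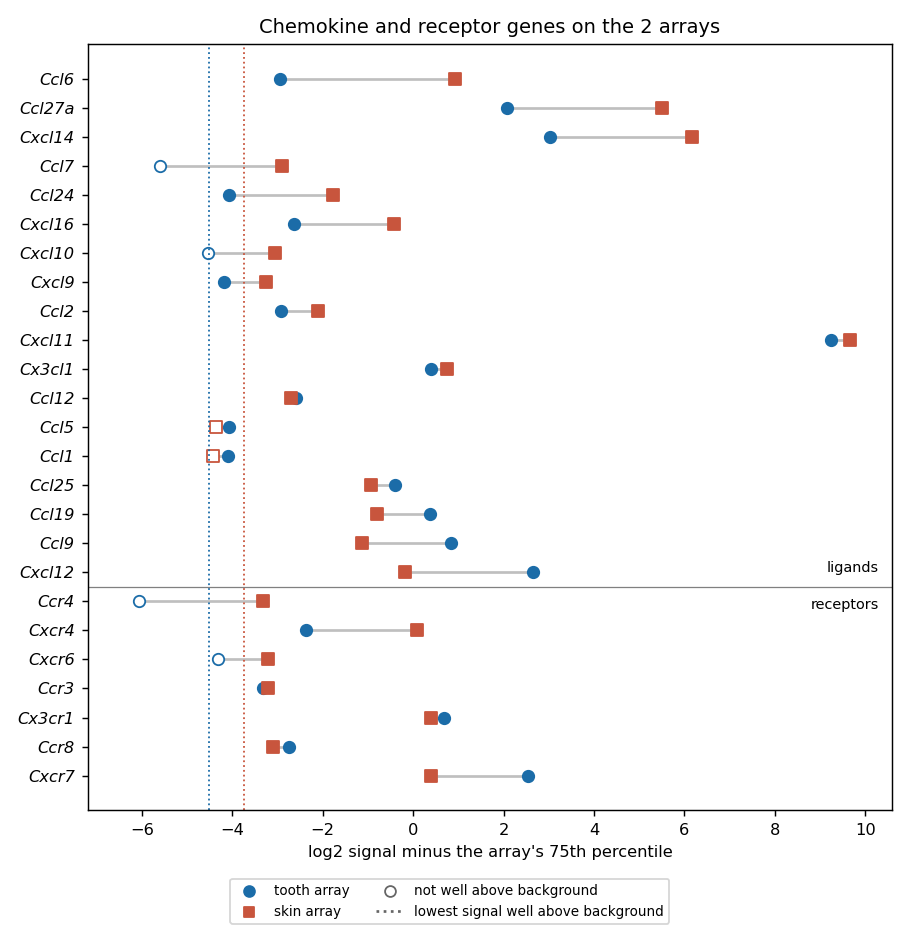
Level of each of the 25 chemokine and receptor genes detected in 1 tissue or both, as log2 signal minus the 75th percentile of the array, with 1 point per tissue and no replicates. Open symbols are not detected (not well above background), and the dotted lines mark the lowest signal well above background on each array (-4.52 for tooth and -3.73 for skin). Ccl6, Ccl27a and Cxcl14 show the widest gaps toward skin and Cxcl12 the widest toward tooth.

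The probes behind the largest differences are printed first, because each difference rests on a single probe or on probes whose differences vary. Each line gives 30 bases of a 60-base probe, 5′ to 3′ as the array design gives them. Capitals mark a run shared with the neighbouring gene's probe for Ccl6 and Ccl9, with the overlapping second probe for the first Ccl27a probe, and with a Gm13308 probe for the distant Ccl27a probe.
Ccl6: cgggtaatatctagctgaGATGAAATcaat
Ccl9: caactagGATGAAATaaattctgccttagc
Ccl27a first probe: GAAAATGTACTCAAACCCCCAACAGCAAAA
Ccl27a distant probe: tcggagccccGGACATGTCGCGATTGAGGA
Cxcl14: cctcattagaggccgcactgtatggctgtg
Cxcl12 brighter probe: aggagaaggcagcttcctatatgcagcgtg
Cxcl12 dimmer probe: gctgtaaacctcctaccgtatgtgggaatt
Cxcr4: aggaagaaactgaacattccagaatgtgtg
Cxcr7: tggacatgtgtacagtagaatcttctgtgt

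The array design places these probes on mouse genome build mm9 at chr11:83401997-83402056 (Ccl6, minus strand), chr11:83388223-83388282 (Ccl9, minus), chr4:41716345-41716404 and chr4:41720610-41720669 (Ccl27a, minus), chr13:56390078-56390137 (Cxcl14, minus), chr6:117131227-117131286 and chr6:117125026-117125085 (Cxcl12, plus), chr1:130485079-130485138 (Cxcr4, minus) and chr1:92111803-92111862 (Cxcr7, plus). Which exon or untranslated region each falls in was not analysed here.

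Ccl6, a CC ligand of myeloid cells that acts on Ccr1, was higher in skin. Its signal was 55.6 in tooth and 521 in skin, and the scaled levels of -2.94 and 0.92 gave a difference of 3.86, or 14.5-fold. With normexp background correction its difference was 2.80, below those of Ccl27a (3.27) and Cxcl14 (3.01) under that setting. Ccl9, another ligand of Ccr1, known for recruiting osteoclast precursors, went the other way: its signal of 766 in tooth stood against 126 in skin, and the difference was -1.98, or 3.93-fold higher in tooth. The probes of these neighbours lie 13.8 kb apart on chromosome 11, and their longest common run was 8 bases. Ccr1 itself was detected in neither tissue. Beside Ccl9, 4 of the 5 osteoclast markers (80%) were at least 2-fold higher in tooth, against 15.5% of named genes. Ctsk lay at -4.89, Acp5 at -3.88 and Oscar, within 2-fold, at -0.34. The summed scaled level of the list was 296.4 in tooth and 18.38 in skin, most of it from Acp5. Beside Ccl6, 7 of the 9 macrophage markers were measured, and none was at least 2-fold higher in skin, against 14.2% of named genes. Of the 7, 5 lay toward skin within 2-fold and the median was 0.31, while the summed level of 28.36 in tooth and 19.88 in skin follows Csf1r (-0.43) and Cd68 (-1.79). Cd163 and Fcgr1 were not well above background. The part of either cell type in these differences was not tested.

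Ccl27a, the keratinocyte ligand of Ccr10, had a signal of 1805 in tooth and 12470 in skin by its brightest probe. The difference was 3.42 on the log2 scale, toward skin. A second probe, which shares 48 bases with the first, gave 3.23. The distant probe lies 4.26 kb away and pointed the other way, where the scaled levels were 0.55 and -0.33 and the difference -0.88. It shares 50 bases with a probe of Gm13308, whose difference was -0.89. Ccr10 was detected in neither tissue. The genome holds near-identical copies of Ccl27a, so which copies each probe reads is uncertain.

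Ccl24, an eosinophil-attracting ligand of Ccr3, was 4.93-fold higher in skin, with scaled levels of -4.07 in tooth and -1.77 in skin. With normexp correction its difference was 1.13 (log2). Ccl7, a monocyte-attracting ligand, was detected only in skin, where it exceeded tooth at least 3.07-fold, while with normexp correction its difference was 1.02 (log2), which is below that bound. Ccl19, the ligand of Ccr7 that draws dendritic cells and T cells to lymph nodes, was 2.27-fold higher in tooth by its brightest probe, with scaled levels of 0.38 and -0.80. Its other probes gave smaller differences of -0.27 and -0.81, so that the mean over its probes (-0.75) is within 2-fold. Its receptor was detected in neither tissue.

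The other CC ligands measured on both arrays were within 2-fold. Ccl2, the main monocyte chemoattractant, was printed as 10 spots on each array. In tooth the spots lay from -3.20 to -2.65 with a median of -2.93, and in skin from -2.38 to -1.72 with a median of -2.10. The spots of the tissues did not overlap after scaling, and the difference of their means was 0.83, with SDs of 0.18 on each array that measure spots and not animals. Before scaling they did overlap, from 46.5 to 68.3 in tooth and from 53.2 to 83.6 in skin. Ccl12, a close relative of Ccl2, differed by -0.12, which becomes 0.26 with normexp background correction. Ccl25, the thymic and gut ligand of Ccr9, differed by -0.54, while another of its probes gave 0.41. The latter shares all 60 bases with a probe of another name that gave -0.16. A further probe, detected in tooth alone, gave a measured difference of -1.48. Ccl1 and Ccl5 were detected in tooth alone and lay too near the floor for a fold or a direction.

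**Figure D2:**
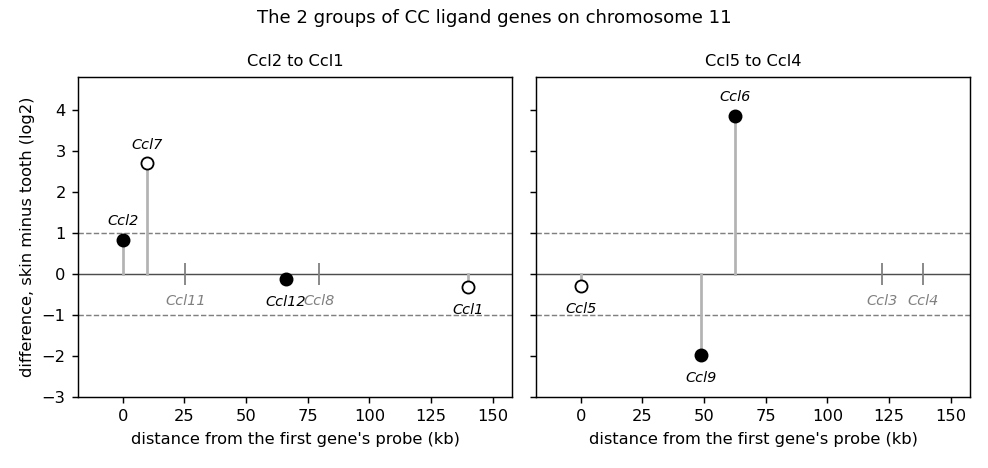
Difference (skin minus tooth, log2) of the CC ligand genes in 2 groups on chromosome 11, against the distance in kb from the first probe of the group. Filled points were detected in both tissues, open points in 1 and are plotted at their measured value, and grey ticks mark genes detected in neither. Ccl9 and Ccl6 lie side by side with differences of -1.98 and 3.86.

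Cxcl14, an epithelial chemokine with antimicrobial activity, was 8.81-fold higher in skin. Its signal was 3465 in tooth and 19690 in skin, and the scaled levels were 3.02 and 6.16. Cxcl16, made as a membrane-bound ligand of Cxcr6, was 4.58-fold higher in skin, with scaled levels of -2.63 and -0.43, and its difference of 2.20 became 1.54 with normexp correction. Its receptor Cxcr6 was detected in skin alone, where it was at least 2.16-fold higher, and fell under 2-fold with median scaling, quantile normalization, spike-in scaling and normexp correction. The signal of this Cxcr6 probe was 21.41 in tooth and 29.85 in skin. An overlapping second Cxcr6 probe was detected in neither tissue, with signals of 17.25 and 26.93. Cxcl16 was thus higher in skin, while the value for Cxcr6 lay near the detection limit.

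Cxcl12, the ligand that retains blood-forming and other precursor cells, had the widest gap toward tooth. The signal was 2706 in tooth and 242 in skin, and the difference was -2.85. The dimmer probe, 6.2 kb away and printed above, gave -1.29, or 2.45-fold. Both probes were higher in tooth, by different amounts. Its receptors split: Cxcr7, now named Ackr3, which takes up Cxcl12 without G protein signalling, was 4.46-fold higher in tooth (signal 2493 against 360, difference -2.16), and Cxcr4, the signalling receptor, was 5.49-fold higher in skin (signal 82.7 against 293, difference 2.46). These directions held under every scaling and background correction tried, from -2.85 to -2.03 for Cxcr7 and from 1.76 to 2.47 for Cxcr4. Marker values of blood endothelium and fibroblasts stand beside these. Of the 5 blood endothelial markers 3 (60%) were at least 2-fold higher in tooth, against 15.5% of named genes. Emcn differed by -3.10 and Cdh5 by -2.70, while Pecam1 (0.50) and Kdr (0.43) lay toward skin within 2-fold. The summed level was 31.43 in tooth and 38.23 in skin, most of it from Kdr (scaled levels 4.78 and 5.21). Of the 5 fibroblast markers 3 were so, with Col1a1 at -3.17, while Dpt was at least 18.7-fold higher in skin. The summed level of the list was 1330 and 252, most of it from the collagen probes. Their part in the Cxcl12 and Cxcr7 differences was not tested.

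The interferon-induced ligands of Cxcr3 lie together on chromosome 5. Cxcl9 was within 2-fold, with scaled levels of -4.17 in tooth and -3.25 in skin. Cxcl10 was detected in skin alone and was at least 2.74-fold higher there, falling under 2-fold with spike-in scaling (0.77, log2) and with normexp correction (0.74). A second probe of each gene was detected in neither tissue, and the same was true of Cxcr3.

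Cxcl11, the remaining ligand of this group, was read by probes that share sequence with probes of other genes. Its brighter probe had a signal of 259300 in tooth and 225000 in skin, ranks 33 and 30 of 55675 probes. A 30-base run of it is also found in the probes named Elk1, Glrx2 and Med16, and shorter runs in others. The dimmer probe shares 19 bases with the probe of Rn4.5s, a small abundant RNA. Capitals mark the shared runs, which for the first line fill the whole window.
Cxcl11 brighter probe: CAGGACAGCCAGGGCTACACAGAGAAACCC
Gm10856: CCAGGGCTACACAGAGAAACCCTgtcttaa
Cxcl11 dimmer probe: ttgaaAGGCAGAGGCAGGAGGATCtcttga
Rn4.5s: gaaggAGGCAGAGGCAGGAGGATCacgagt

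In all, 8 probes of other names share at least 18 bases with the brighter probe, and 7 of them were among the 1000 brightest on both arrays. Cdcp1, with 18 shared bases, was not (rank 15782 in tooth and 13695 in skin). The differences of these 8 ran from 0.15 to 0.58, and the Cxcl11 probes gave 0.43 and 0.38, which become negative with spike-in scaling for the brighter probe (-0.27). The part of the shared run in the signal was not tested. Leaving Cxcl11 out put the ligand median at 0.83.

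**Figure D3:**
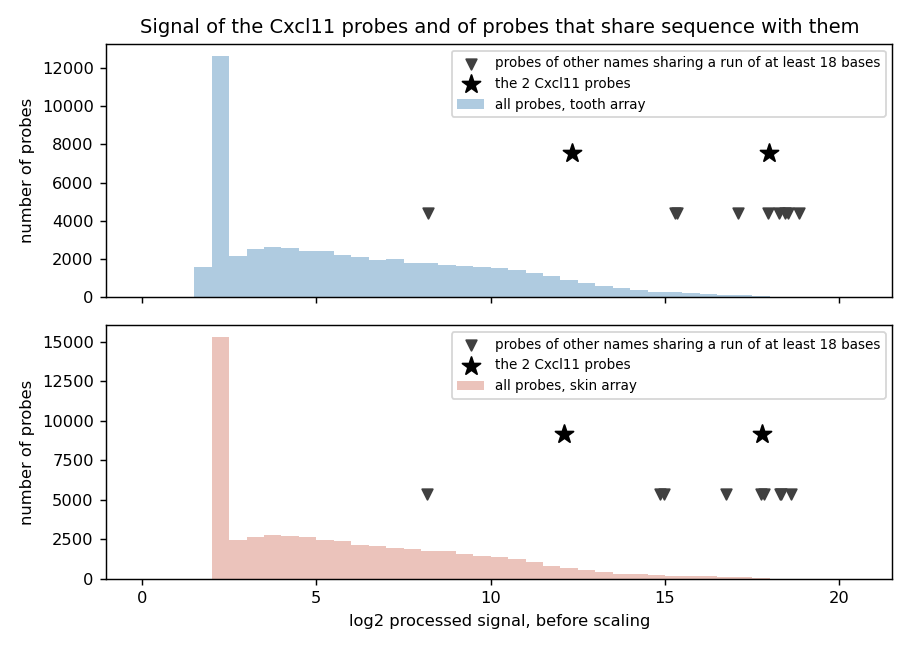
Distribution of log2 processed signal before scaling over all probes, for tooth in the upper panel and skin in the lower, in number of probes per bin. Stars mark the 2 Cxcl11 probes and triangles the probes of other names that share at least 18 bases with either, placed at arbitrary heights. All but 1 triangle lie in the bright tail with the brighter Cxcl11 probe.

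The CX3C pair was within 2-fold in both directions. Cx3cl1, a ligand that also tethers cells from the membrane, had levels of 0.39 in tooth and 0.75 in skin. Its receptor Cx3cr1, a marker of resident macrophages and monocytes, had 0.68 and 0.39, a difference of -0.29, and a second probe gave -0.09. The sign for Cx3cl1 turns under spike-in scaling (-0.34).

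Of the other receptors, Ccr4, found on skin-homing T cells, was detected in skin alone and was at least 2.30-fold higher there, though its difference was under 2-fold with normexp correction. Ccr3, the eosinophil receptor, differed by 0.11 and Ccr8, the receptor of Ccl1, by -0.36. Both change sign under another setting, Ccr3 under median, quantile and spike-in scaling and Ccr8 under normexp correction. A second Ccr8 probe was detected in neither tissue, with signals of 4.379 in tooth and 4.839 in skin. Of the 7 T cell markers 5 were measured. At least 2-fold higher in skin was 1 (20%), against 14.2% of named genes (Cd3d, at least 3.44-fold). Cd3e, Lck and Thy1 differed by 0.84, 0.95 and 0.84, all smaller than 2-fold, and Cd247, detected in tooth alone, had a measured difference of -0.25. Cd3g and Cd2 were not well above background, and the summed level was 13.59 in tooth and 24.55 in skin. The Langerhans and dendritic cell list had 3 of 6 measured markers at least 2-fold higher in skin, against 14.2% of named genes. Cd74, at 2.87, was among them. Zbtb46, detected in tooth alone, had a measured difference of -0.29, and Cd207 was not well above background. Of the 6 mast cell markers measured 5 (83.3%) were at least 2-fold higher in skin, against 14.2% of named genes. Among these, Cma1 and Tpsab1 were detected in skin alone. The summed level of the list was 3.345 in tooth and 5.394 in skin. Kit differed by -0.71, and Ms4a2 was not well above background. The part of these cells in the receptor and ligand differences was not tested.

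**Figure D4:**
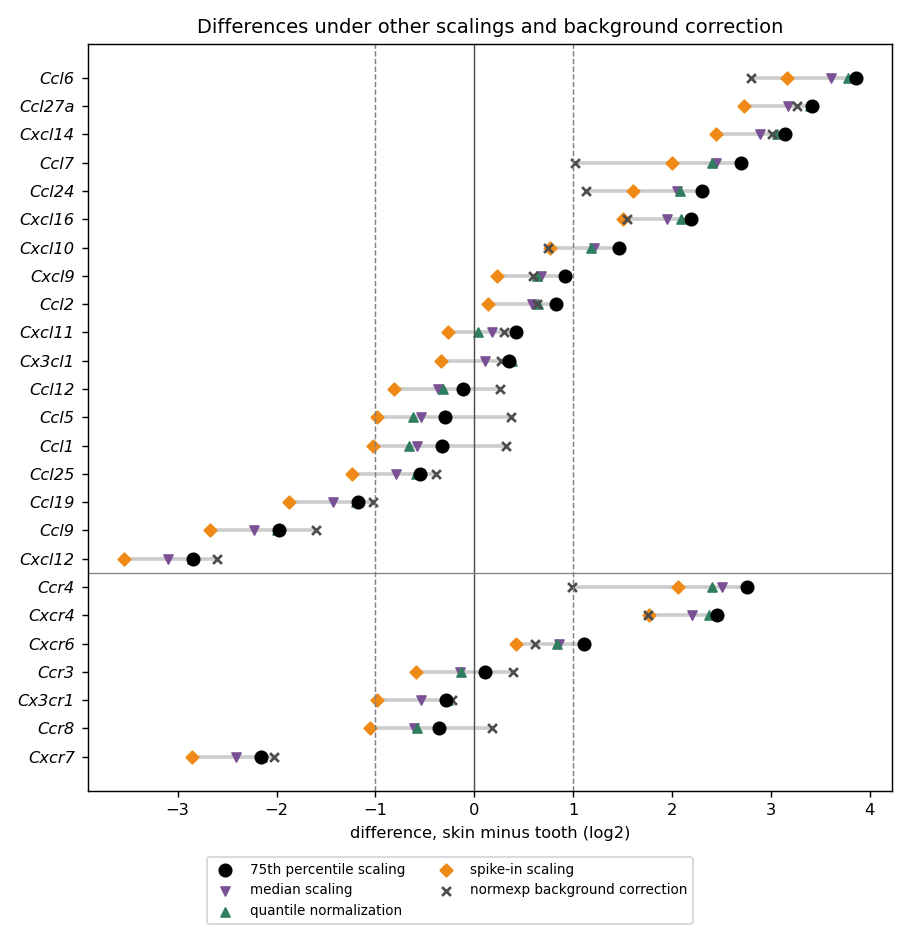
Difference (skin minus tooth, log2) of the 25 measured genes under scaling to the 75th percentile (black) and under 4 other settings, with ligands above the line and receptors below. Dashed lines mark 2-fold. Ccl6, Ccl27a, Cxcl14, Ccl24, Cxcl16, Cxcr4 and Ccl7 (detected in skin alone, plotted at its measured value) stay beyond 2-fold toward skin under all 5. Cxcl12, Ccl9, Ccl19 and Cxcr7 do so toward tooth, while genes near 0 change side.

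**Figure D5:**
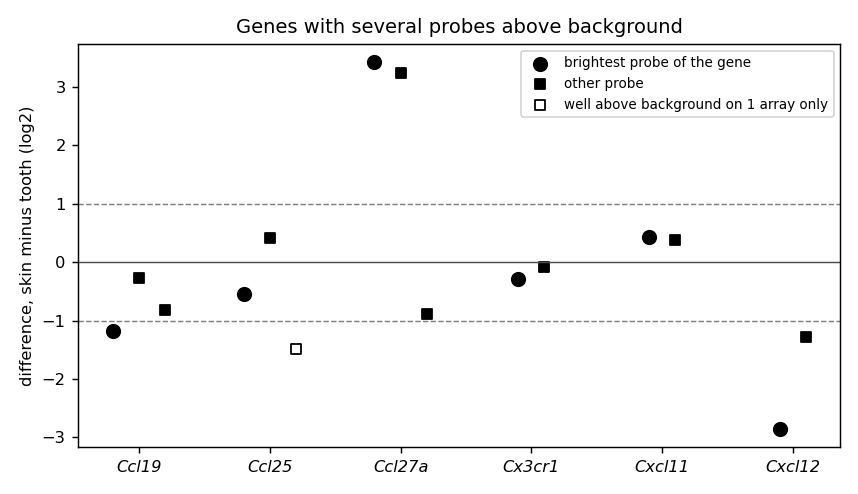
Difference (skin minus tooth, log2) of every probe detected in 1 tissue or both, for the 6 genes with several such probes. The distant Ccl27a probe (-0.88) lies on the other side of 0 from the first 2 (3.42 and 3.23), and both Cxcl12 probes lie toward tooth.

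The remaining 27 genes were detected in neither tissue. They included the CC ligands Ccl3, Ccl4, Ccl8, Ccl11, Ccl17, Ccl20, Ccl22, Ccl26 and Ccl28, the CXC ligands Cxcl1, Cxcl2, Cxcl3, Cxcl5, Cxcl13, Cxcl15 and Cxcl17, and the receptors Ccr1, Ccr2, Ccr6, Ccr7, Ccr9, Ccr10, Cxcr1, Cxcr2, Cxcr3 and Cxcr5. All neutrophil-attracting ligands of the cluster of Cxcl5, Cxcl3, Cxcl15, Cxcl1 and Cxcl2 were among them, as were their receptors Cxcr1 and Cxcr2, while all 8 neutrophil markers were measured. Of these, 5 (62.5%) were at least 2-fold higher in tooth, against 15.5% of named genes, and Ly6g was at least 4.94-fold higher in skin. The summed level was 143.4 in tooth and 162.5 in skin, most of it from Csf3r (scaled levels 6.85 and 7.26). A signal under this limit does not show that a transcript is absent.

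Genes of the chemokine system with other names were mostly within 2-fold. Of 12, 8 were measured. At least 2-fold higher in skin was 1 (12.5%), against 14.2% of named genes (Ackr1, the endothelial scavenger, 2.09-fold). By the same rule 1 (12.5%) was higher in tooth, against 15.5% (Ppbp, a platelet chemokine, at least 1.70-fold by its bound). Pf4, another platelet chemokine, had levels of 1.52 in tooth and 2.30 in skin. Ackr2, which clears inflammatory CC ligands, differed by -0.62 and Ackr4 by 0.29.

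Of 23 genes that signal downstream of the receptors 21 were measured, 7 (33.3%) were at least 2-fold higher in tooth, against 15.5% of named genes, and 1 (4.76%) in skin, against 14.2%, with a median of -0.26. With spike-in scaling, 35.5% of all named genes were at least 2-fold higher in tooth. Arrb1, an arrestin that ends receptor signalling, was 16.0-fold higher in tooth, with scaled levels of 5.20 and 1.20. Gng2, a G protein subunit, differed by -2.35, Rac2, a GTPase of blood cells, by -2.15, and the receptor kinases Grk5 and Grk3 by -1.68 and -1.30. Pik3r5 was higher in tooth by at least 6.25-fold, and Pik3cg, the catalytic partner of Pik3r5, at least 3.47-fold higher in skin. These genes serve many receptors besides those of chemokines.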

How the data were processed

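Total RNA of 1 tooth and 1 skin sample was labelled with Cy3 and hybridised to single-colour Agilent arrays, and the deposited scanner files give the processed signal intensity of each spot, background-subtracted by Agilent Feature Extraction (version 10.7.3.1 per the submitters' processing notes). The authors also deposited a table of the same spots holding a ratio, each spot's intensity divided by a constant of its array; it was used as an alternative. Whether a spot was well above background is a deposited call of the same software.

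From these, control spots were left out and spots of a probe were averaged on the log2 scale. Each array was then scaled to the 75th percentile of its probe values, and the brightest probe stood for a gene. A gene counted as measured where that probe was detected, meaning well above background, in 1 tissue or both. Where 1 array was dim, the fold is a bound against the higher of the dim probe's own value and the lowest signal well above background; counts of 2-fold differences used the measured values, and placing dim values at their bound left these counts at 10 and 4. Limma 3.58.1 in R 4.3.3 gave the normexp correction (offset 50). Calculations ran in Python 3.11.15 and were tested on simulated data. The gene rule and the lists were chosen with earlier results of these data known. No model was fitted, because each tissue had 1 array, and precision is limited by that number.

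Alternatives were median, quantile and spike-in scaling, normexp correction, the deposited ratios, the mean over probes and other rules for dim probes. Spike-in scaling was first computed with the mean of 8 spike-in differences; scaling by their median and leaving out Cxcl11 were added after seeing the values. Coordinates are those of the deposited files (mm9). The values of 1 of the 52 genes are not reported here, although it is included in the counts.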

Additional observations from a re-analysis of the deposited data

How the results depend on the processing

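No called gene changed direction under any alternative. No paired analysis was possible because each tissue had 1 array, and no replicate could be left out. A more lenient detection call put the measured genes at 44. Counting only genes well above background on both arrays gave 6 genes at least 2-fold higher in skin. Spike-in scaling by the mean of the spike-in differences, the form computed first, gave 7 genes at least 2-fold higher in tooth, adding Ccl1, Ccl25 and Ccr8. After that result was seen, scaling by the median was added, since 1 of 8 spike-ins differed by 0.54 and the others by at most 0.03; it gave 5, adding Ccl25 alone. Both are given.

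The ligand median was 0.38 with median scaling, 0.51 with quantile normalization, -0.064 with spike-in scaling by the mean, 0.0035 by the median, 0.48 with normexp correction, 0.32 with the lenient call and 0.83 without Cxcl11, an alternative chosen after seeing the data. The receptor median was -0.14 with median scaling, -0.13 with quantile normalization, -0.59 with spike-in scaling by the mean, -0.52 by the median, 0.39 with normexp correction, 0.46 with no filter on dim probes and -0.29 over genes measured on both arrays. The cause was not tested. Relative to 75th percentile scaling, the median of all named genes moved by -0.25 with median scaling, by -0.69 with spike-in scaling by the mean and by -0.62 by the median, and the share of named genes at least 2-fold higher in tooth rose from 15.5% to 35.5% by the mean and 32.4% by the median. Signals near background limit Ccl7, Ccr4, Cxcl10 and Cxcr6.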

Other observations

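Some members were above background only by the more lenient of the deposited calls. Those given here, as values with no fold, were picked from the ones whose measured difference reached 2-fold under that call. Ccl11, the ligand of Ccr3 that draws eosinophils, had a signal of 4.13 in tooth and 12.8 in skin. Ccl17, a ligand of Ccr4, had 14.5 and 18.7. Ccr6, the receptor of Ccl20, had 10.4 and 23.5. Ccr7, the receptor of Ccl19, had 21.1 in tooth and 5.09 in skin. By the lenient call Ccl11 was above background in skin alone and Ccr7 in tooth alone. None of these signals was well above background.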
